A study of Homo sapiens with 49 samples.

Results

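The comparison pooled the 2 lowest concentrations of ethinyl estradiol in the series, 0.1 pM (6 arrays) and 0.3 pM (7 arrays), and set these 13 arrays against the 6 arrays of the ethanol vehicle. The series text speaks of 6 replicates for each concentration, whereas the labels number 7 at 0.3 pM, and all 7 were used. The arrays were chosen by their labelled concentration alone, and the 19 of them come from 49 arrays in all. The question was whether any gene of these cells changed below 1 pM and, where no change was called, how large a change of known estrogen targets the data still allow.

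Ethinyl estradiol is the synthetic estrogen of oral contraceptives. The cells were of the Ishikawa line, which was derived from a human endometrial adenocarcinoma. All groups were held in phenol red-free medium with CSS supplement before treatment and then for 72 h with ethinyl estradiol or with the same amount of ethanol alone, and part of the medium was renewed every day. Each sample of total RNA was read on 1 Affymetrix HT HG-U133 Plus PM array, and the other 30 arrays cover 1, 3, 10, 100 and 1000 pM (6 arrays each). The labels give 1 cell line and leave unsaid if replicates came from different cultures. The p-values thus weigh only the variation among these arrays, and part or all of it may be technical.

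Estrogens act on cells of the endometrium mainly through estrogen receptor alpha (ESR1), a transcription factor that the ligand activates. The bound receptor binds estrogen response elements in DNA, many of them far from the gene, and recruits coactivators. Its best known targets include the progesterone receptor gene PGR and GREB1, and in Ishikawa cells estrogens also induce alkaline phosphatase, which is used as an assay of estrogenic activity.

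Levels below are the deposited log2 GCRMA values, in which a step of 1 is a doubling of signal, and differences are the mean of the 13 treated arrays minus the mean of the 6 vehicle arrays on that log2 scale. A gene was tested where its probe set exceeded a log2 level of 4, called the floor here, on at least 6 of the 49 arrays, which left 11075 genes. The limma test was fitted on all 49 arrays in 8 groups, with Benjamini-Hochberg adjustment and a threshold of 0.05. The limits on each gene are the bounds of its 95% interval from this fit, and they are not adjusted over genes.

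Among the 19 arrays 2 stood apart. The beta-actin control probe sets near the 3′ end exceeded those near the 5′ end by 3.26 on 0.3 pM replicate 2 and by 4.62 on vehicle replicate 5, against 0.80 to 2.06 on the other 17 arrays (log2 difference). For GAPDH the same difference was 0.73 and 1.79 on these arrays, against −0.18 to 0.19 on the other 17. The SD of the genes' deviations from their group mean was 0.398 on 0.3 pM replicate 2 and 0.561 on vehicle replicate 5, and 0.104 to 0.206 on the others. These arrays held 18.0% and 35.4% of all squared deviations within the 3 groups. The comparison was therefore repeated without them, from 12 treated and 5 vehicle arrays. This repeat kept the 30 arrays of higher concentrations in the fit, for the shared spread. Of these, 3 pM replicate 6 and 1000 pM replicate 6 also had high beta-actin differences, 2.75 and 2.67. The 15 epithelial marker genes were above the floor on all 19 arrays, and 4 of 13 stromal, 0 of 14 immune and 0 of 7 endothelial marker genes could be tested. The mean level of the epithelial markers per array was 8.33 to 8.65 in the treated arrays and 8.38 to 8.62 in the vehicle arrays.

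**Figure D1:**
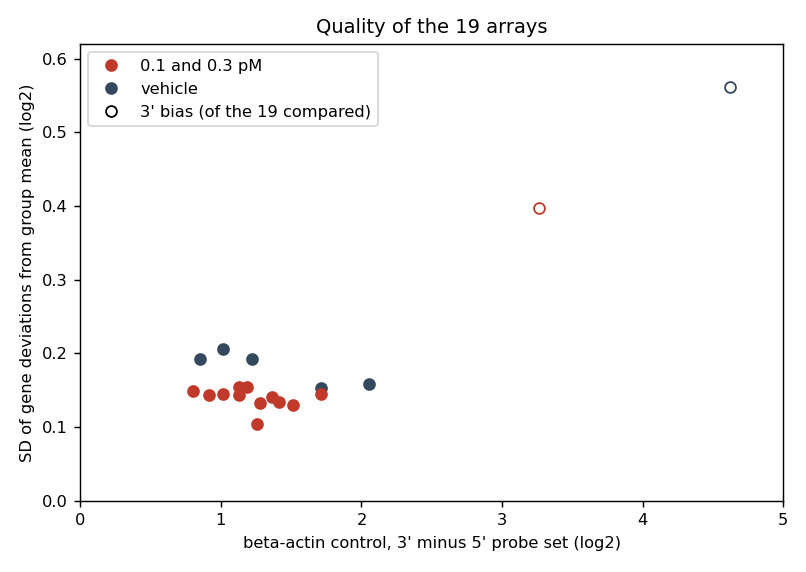
Each point is 1 of the 19 arrays, with the beta-actin 3′ minus 5′ difference (log2) on the x axis and the SD of the genes' deviations from the group mean (log2) on the y axis, in red for 0.1 and 0.3 pM and in dark blue for vehicle. The open points, 0.3 pM replicate 2 (3.26) and vehicle replicate 5 (4.62), lie far to the right of and above the other 17.

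No gene was called at 0.1 and 0.3 pM against vehicle: 0 of 11075 genes passed limma's adjusted threshold (0%), and the lowest adjusted p was 0.738. At an unadjusted p under 0.05 there were 408 genes (3.68%), of which 220 were higher (1.99%) and 188 lower (1.70%) in the treated arrays. Genes that do not change pass that threshold at a rate of about 0.05, so the 408 are not read as responding genes. The largest difference of any gene was 0.55 on the log2 scale, and 0 genes differed by 1.5-fold or more. Without the 2 arrays with 3′ bias 0 genes were again called, with 94 at an unadjusted p under 0.05 (0.849%), 22 of them higher and 72 lower, and 59 were among the 408 with the same sign.

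The concentrations taken one at a time share the vehicle arrays with the pool and with each other. At 0.1 pM 0 genes were called by limma, with a lowest adjusted p of 0.686 and 467 genes at an unadjusted p under 0.05. At 0.3 pM 0 genes were called, with a lowest adjusted p of 0.952 and 288 genes at an unadjusted p under 0.05. Between 0.3 pM and 0.1 pM, which were pooled, 0 genes were called and 209 had an unadjusted p under 0.05 (lowest limma adjusted p 0.999). Pooling therefore joined groups between which no difference was called.

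The fit bounded most genes closely. The whole 95% interval lay within a 1.5-fold change either way for 10814 genes (97.6%) and within 2-fold for 11072. The interval's median half-width was 0.16 on the log2 scale, a factor of 1.12. From 12 treated and 5 vehicle arrays, without those with 3′ bias, the share within 1.5-fold was 99.8%. These are counts of single-gene intervals, so a share of them can miss the true value by design.

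Known estrogen targets were described from a list of 57 genes drawn from endometrial and breast cells. Of these 36 were tested, 19 had no probe set over the floor on enough arrays and 2, AREG and RBBP8, had no probe set of their own. The 19 include TFF1, the trefoil factor that marks the estrogen response of breast cells, with TFF3, PDZK1, IGFBP4, CXCL12, LTF, C3, IHH, IGF1 and the placental alkaline phosphatase ALPP. Their highest level on any of the 49 arrays was below 4, so nothing is said of their change. Of the 36 tested targets 34 were above the floor on at least 6 of the 19 arrays, and ALPG and EGR3 were tested only because of their levels at higher concentrations.

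None of the 36 targets was called, and 0 had an unadjusted p under 0.05 either, against 3.68% of all genes. Their differences ran from −0.25 for ADORA1, the adenosine A1 receptor, to 0.19 for the transcription factor MYC, with 20 above and 16 below 0 and a median of 0.02, beside a median of 0.00 over all genes. The interval lay within 1.5-fold for 33 of the 34 targets above the floor (35 of 36 with the others), beside 97.6% of all genes. Over the 36, its median half-width was 0.20, a factor of 1.15. Without the 2 arrays with 3′ bias all 36 lay within 1.5-fold, the median difference was −0.01, and 1 target, the transcription factor MYB, had an unadjusted p under 0.05, at a difference of −0.19 (limma p 0.044). In a fit of only the other 17 arrays, 35 of the 36 lay within 1.5-fold.

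**Figure D2:**
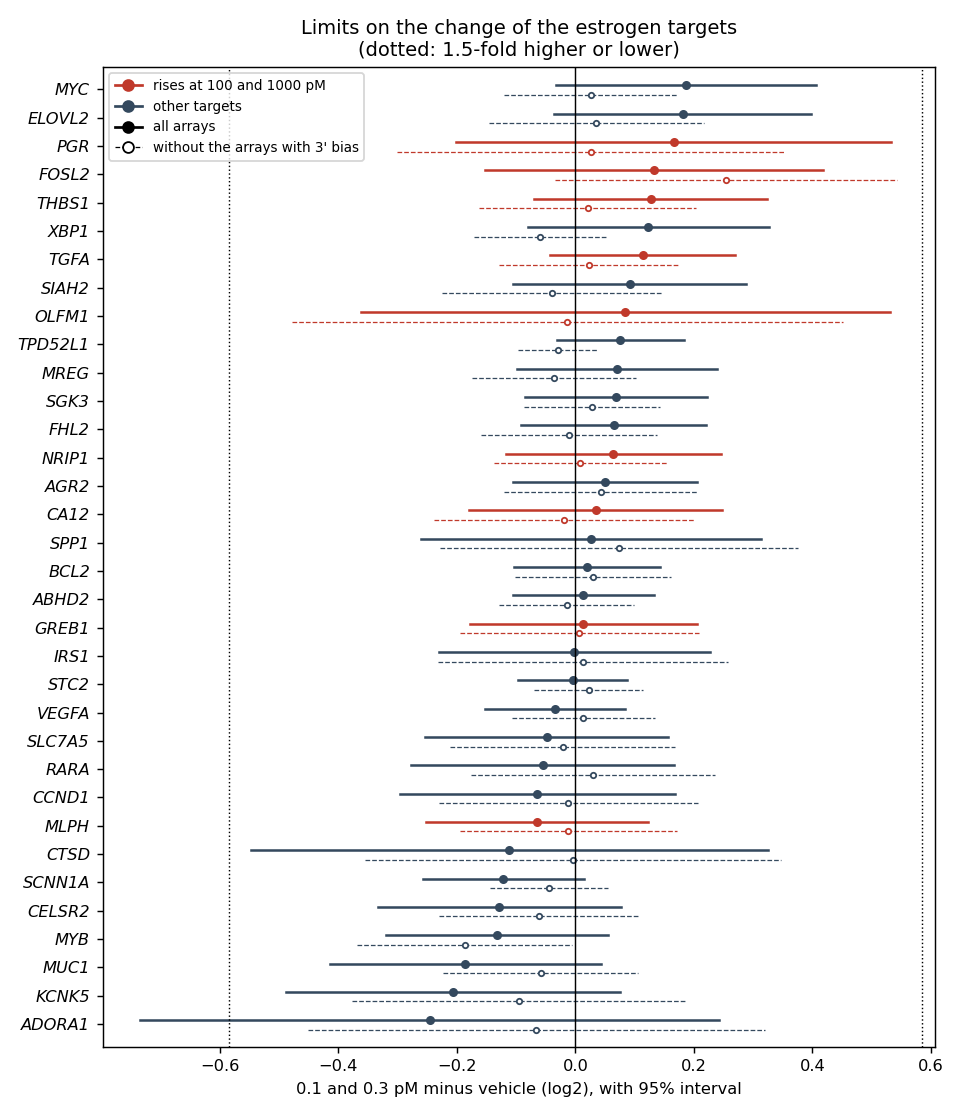
Each target gene has its difference (0.1 and 0.3 pM minus vehicle, log2) as a point and its 95% interval as a line, filled and solid for all arrays and open and dashed without the 2 arrays with 3′ bias, with dotted lines at 1.5-fold. Red marks targets that rise at 100 and 1000 pM. All intervals over all arrays cross 0, and only that of ADORA1 passes a dotted line. ALPG and EGR3 are not drawn, since all 19 arrays were at or under the floor.

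Some of the targets respond in these cells at higher concentrations. In the 30 arrays outside the comparison, 11 of the 36 rose at 100 and 1000 pM relative to 1 pM by at least 1.5-fold at a limma adjusted p under 0.05. Of these 9 were above the floor on at least 6 of the 19 arrays. For all 9 the interval at 0.1 and 0.3 pM lay within 1.5-fold in the fit on all arrays. Of the differences 8 were above and 1 below 0, with a median of 0.08. The median was 0.01 without the 2 arrays with 3′ bias, with 6 above and 3 below 0. The intervals use a spread shared by all groups, and they depended on the arrays in the fit. Without vehicle replicate 2 the upper limit was 1.60-fold for PGR and 1.68-fold for OLFM1. For CA12, FOSL2, GREB1, MLPH, NRIP1, TGFA and THBS1 it stayed under 1.5-fold in the 34 alternatives with values per gene. The nearest was THBS1, at 1.499-fold with the mean of its probe sets. Those alternatives do not include the fit over every probe set, where 30 of the 36 targets lay within 1.5-fold. With the 19 arrays alone, 32 of the 36 targets lay within 1.5-fold.

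PGR, the progesterone receptor, had a lowest, median and highest level of 3.42, 4.30 and 4.68 on the treated arrays, against 3.00, 4.09 and 4.68 on the vehicle arrays. The ranges overlap, and the lowest array of each side was the one with 3′ bias. The mean was 4.19 ± 0.41 (SD, n = 13) in treated and 4.02 ± 0.57 (SD, n = 6) in vehicle cells, a difference of 0.17 ± 0.18 (SE). The upper limit was 0.53 on the log2 scale, or 1.45-fold. That limit is 12.2% of its log2 difference between the mean of 100 and 1000 pM and 1 pM (4.38). Without the 2 arrays with 3′ bias the difference was 0.03 with an upper limit of 0.35, 8.05% of that response. At these levels only 14 of the 19 arrays exceeded the floor, and GCRMA compresses differences near it.

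GREB1, an early response gene whose protein is a cofactor of the receptor, varied less between arrays than PGR did. Its levels were 4.71, 5.21 and 5.38 (lowest, median, highest) on the treated arrays, against 4.96, 5.13 and 5.33 on the vehicle arrays. The treated arrays lie on both sides of the vehicle range, 8 of 13 above the vehicle mean. The difference was 0.01 ± 0.10 (SE), with an upper limit of 0.21, or 1.15-fold. That is 8.47% of its response of 2.42. The concentrations gave 0.12 at 0.1 pM and −0.08 at 0.3 pM, each against vehicle.

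NRIP1, a nuclear corepressor that binds the receptor, had levels of 6.99, 7.56 and 7.79 on the treated arrays, against 6.97, 7.54 and 7.79 on the vehicle arrays. Both lowest values came from the arrays with 3′ bias. Its difference was 0.06 ± 0.09 (SE), with an upper limit of 0.25 (1.19-fold), 18.0% of its response of 1.36. Without those 2 arrays the difference was 0.01 and the upper limit 0.15, 11.3% of the response.

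Among the targets that rose with dose OLFM1, the glycoprotein olfactomedin 1, was the most variable. Its levels were 4.05, 4.78 and 5.77 on the treated arrays, against 4.02, 4.54 and 5.89 on the vehicle arrays. The SD was 0.57 in treated and 0.73 in vehicle arrays, and each group held both high and low arrays. The difference was 0.08 ± 0.22 (SE), with an upper limit of 0.53 (1.44-fold), 15.2% of its response of 3.49. Its other probe set over the floor had means under the floor in both groups, so no fold is drawn from it.

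TGFA, a ligand of the EGF receptor, was brighter, with levels of 8.95, 9.24 and 9.48 on the treated arrays and 8.71, 9.22 and 9.41 on the vehicle arrays. The difference of 0.11 ± 0.08 (SE) had an upper limit of 0.27 (1.21-fold), 31.0% of its response of 0.87, and was 0.02 without the 2 arrays with 3′ bias. THBS1, the matrix glycoprotein thrombospondin 1, had levels of 9.01, 9.21 and 9.52 on the treated arrays, against 8.55, 9.26 and 9.52 on the vehicle arrays. The lowest vehicle value was that of the array with 3′ bias. Its difference was 0.13 ± 0.10 (SE), with an upper limit of 0.32, 32.0% of its response of 1.01, and it was 0.02 without those 2 arrays.

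CA12, a membrane carbonic anhydrase, had levels of 5.93, 6.19 and 6.67 on the treated arrays and 5.98, 6.11 and 6.54 on the vehicle arrays. The treated range enclosed the vehicle range, and the difference was 0.03 ± 0.11 (SE), with an upper limit of 0.25 (1.19-fold). MLPH, melanophilin, an adaptor between vesicles and a myosin motor, had levels of 4.03, 4.42 and 4.79 on the treated arrays, against 3.95, 4.47 and 4.89 on the vehicle arrays. Its difference was −0.06 ± 0.09 (SE), with an upper limit of 1.09-fold, or 5.20% of its response of 2.36, and it was −0.01 without the 2 arrays with 3′ bias. The concentrations went opposite ways, with −0.22 at 0.1 pM and 0.07 at 0.3 pM against vehicle, and 0.3 pM minus 0.1 pM gave 0.30 (limma p 0.0069, unadjusted, in a comparison with 0 calls).

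FOSL2, a Fos-family member of AP-1, differed more without the arrays with 3′ bias. Its levels were 3.98, 4.27 and 4.46 on the treated arrays and 3.69, 4.07 and 4.76 on the vehicle arrays, where the highest was the array with 3′ bias. The difference was 0.13 ± 0.14 (SE) over all arrays. It was 0.25 without them, with an upper limit of 0.54 (limma p 0.082), which is 52.9% of its response of 1.02. The limit on FOSL2 is therefore the loosest, relative to its response, among the targets that rose with dose.

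ALPG, the germ cell alkaline phosphatase, and EGR3, an immediate early zinc finger factor, are the other 2 targets that rose with dose. ALPG averaged 6.77 at 100 pM and 7.07 at 1000 pM, and EGR3 5.38 and 5.62. At 0.1 and 0.3 pM and in vehicle all 19 arrays were at or under the floor for both. ALPG levels were 3.15 to 3.81 on the treated arrays and 3.18 to 3.83 on the vehicle arrays. EGR3 levels were 1.93 to 2.59 on the treated arrays and 2.01 to 2.96 on the vehicle arrays. No fold is given. For ALPG 1 of 6 arrays exceeded the floor at 1 pM and 6 of 6 did at 3 pM, where the mean was 4.43, so its signal left the floor above the concentrations compared here.

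**Figure D3:**
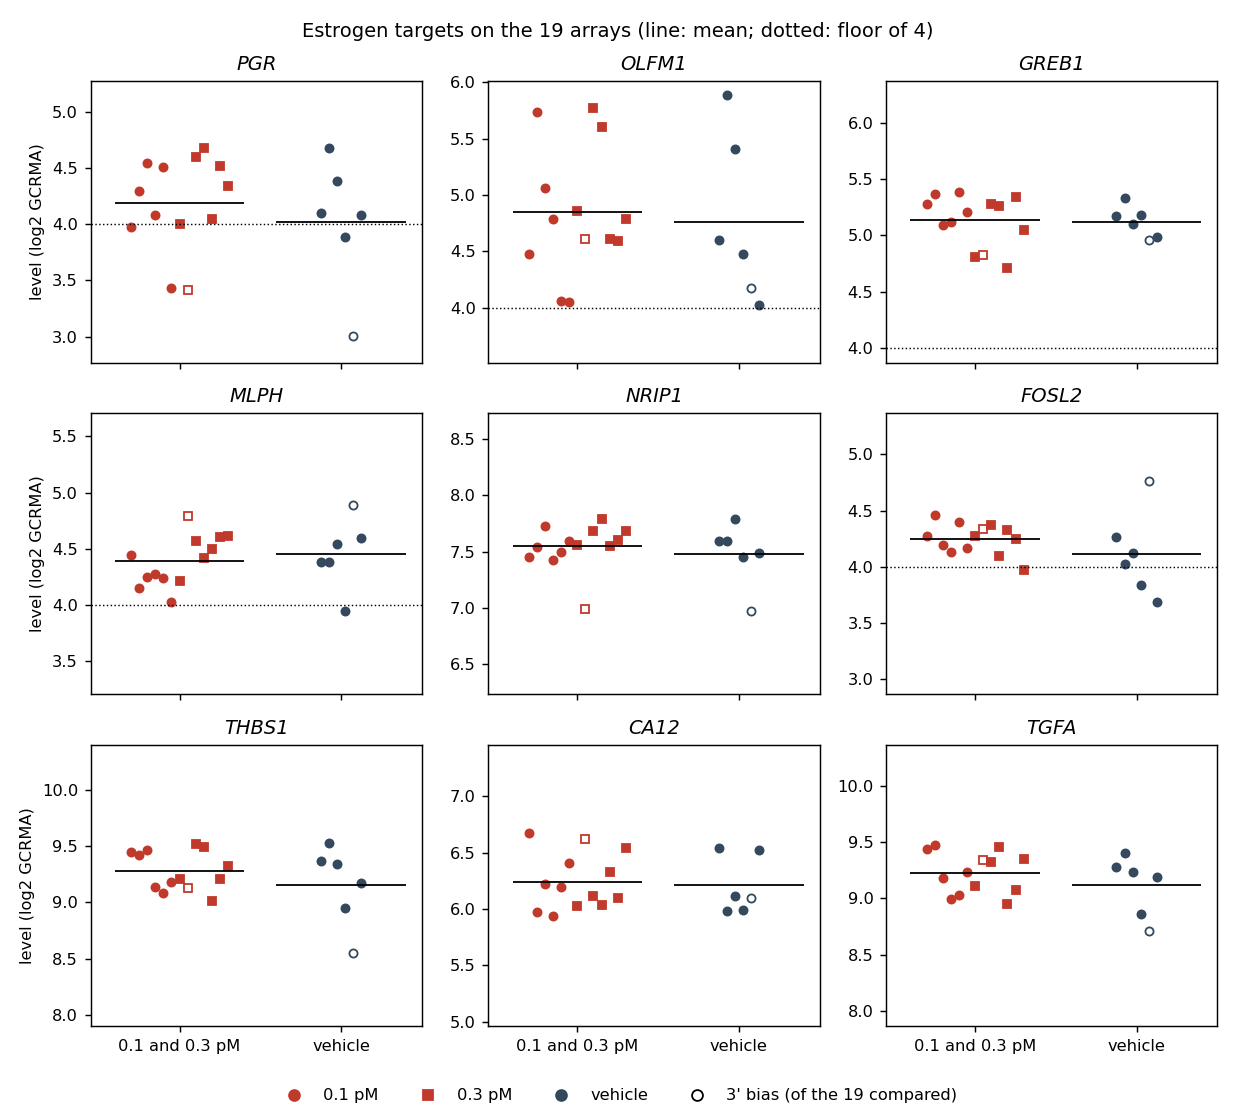
Levels (log2 GCRMA) of 9 targets that rise at 100 and 1000 pM are drawn for each array, the 13 arrays of 0.1 pM (red circles) and 0.3 pM (red squares) on the left and the 6 vehicle arrays (dark blue) on the right, with a line at each mean. Every panel spans the same number of log2 units. The clouds overlap in all 9 panels, and the open points mark the arrays with 3′ bias.

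The promoters of the responsive targets are shown because they are where the receptor's element could lie next to the gene, with ALPG and PGR as the members whose response is among the largest. Windows of 250 bases upstream of the start site were read from RefSeq (GRCh38.p14) for 9 of the 11 genes. The arm of the response element, GGTCA on either strand, was searched, and the full element, which joins both arms as an inverted repeat with a spacer of 3 bases. Of the 9 windows 3 held an arm (ALPG, CA12 and TGFA), beside 32.6% of all 35116 windows, and 0 held the full element, beside 14 windows in all (0.04%). A match is a description of the letters and not a site of binding. The window of ALPG lies at chr2:232406594-232406843 on the plus strand and that of PGR, its most upstream window, at chr11:101129814-101130063 on the minus strand. Capitals mark the arms of the element, of which ALPG has 2 and PGR 0.
ALPG: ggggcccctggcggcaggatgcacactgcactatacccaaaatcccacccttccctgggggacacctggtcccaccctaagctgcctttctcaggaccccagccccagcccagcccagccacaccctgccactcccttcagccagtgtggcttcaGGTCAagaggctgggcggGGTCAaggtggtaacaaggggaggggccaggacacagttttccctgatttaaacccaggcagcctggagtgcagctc
PGR: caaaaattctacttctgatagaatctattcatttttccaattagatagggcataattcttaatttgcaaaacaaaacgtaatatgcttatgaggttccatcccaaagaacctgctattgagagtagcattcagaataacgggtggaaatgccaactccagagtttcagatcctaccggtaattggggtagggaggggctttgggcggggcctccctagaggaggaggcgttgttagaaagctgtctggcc

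The other 25 tested targets did not meet that criterion at the higher concentrations. Among growth regulators, the cell cycle gene CCND1 (cyclin D1) differed by −0.06, the apoptosis inhibitor BCL2 by 0.02, the insulin receptor substrate IRS1 by 0.00 and the angiogenic factor VEGFA by −0.03. Their upper limits were 1.12-fold, 1.10-fold, 1.17-fold and 1.06-fold.

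The values at the ends of the list moved with the arrays that stand apart. MYC had levels of 8.76, 9.24 and 9.43 on the treated arrays and 8.04, 9.16 and 9.46 on the vehicle arrays, where the lowest was vehicle replicate 5. Its difference was 0.19 ± 0.11 (SE) over all arrays and 0.03 without the 2 arrays. ELOVL2, a fatty acid elongase, gave 0.18 over all arrays and 0.04 without them, and XBP1, a factor of the unfolded protein response, gave 0.12 and −0.06. At the lower end ADORA1 gave −0.25 ± 0.24 (SE) and −0.07 without them. Its lower limit over all arrays, a 1.66-fold decrease, was the only one of the 36 beyond 1.5-fold. MUC1, a surface mucin, gave −0.19 and −0.06, and the potassium channel KCNK5 gave −0.21 and −0.10.

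The remaining targets had intervals within 1.5-fold as well. CTSD, a lysosomal protease, had the widest of these, from −0.55 to 0.32 (−0.36 to 0.35 without the 2 arrays with 3′ bias). STC2, a secreted stanniocalcin, had the narrowest, from −0.10 to 0.09, with levels of 8.07 to 8.42 on the treated arrays and 8.09 to 8.44 on the vehicle arrays. ABHD2, AGR2, CELSR2, FHL2, MREG, RARA, SCNN1A, SGK3, SIAH2, SLC7A5, SPP1 and TPD52L1 lay between them.

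The receptor itself was measured. ESR1 had levels of 8.16, 8.22 and 8.32 on the treated arrays and 8.09, 8.26 and 8.32 on the vehicle arrays. The difference was −0.02 ± 0.04 (SE), and the limits lay between a 1.07-fold decrease and a 1.05-fold increase. Without the 2 arrays it was −0.05 (limma p 0.182). The 6 probe sets of ESR2, the other estrogen receptor, were all under the floor, with a highest level of 2.96 on any of the 19 arrays. Among 31 receptors and cofactors 22 were tested, 0 were called and 0 had an unadjusted p under 0.05, beside 3.68% of all genes. All 22 intervals lay within 1.5-fold, beside 97.6% of all genes, so these counts are near those of any genes. The median difference was −0.02. The reference transcripts ACTB and GAPDH differed by −0.04 ± 0.05 (SE) and 0.02 ± 0.03 (SE).

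Genes of these cells that respond to dose were then taken without regard to the list. In the 30 arrays outside the comparison 341 genes rose and 440 fell from 1 pM to the mean of 100 and 1000 pM (limma, adjusted p under 0.05), 97 and 67 of them by at least 1.5-fold. Many of these genes are dim without estrogen: of the 97, 14 had all 19 arrays at or under the floor, and 75 were above it on at least 6 of the 19 arrays, as were 66 of the 67. At 0.1 and 0.3 pM the 75 had a median difference of −0.02, with 31 above and 44 below 0, and the 66 had a median of 0.02, with 34 above and 32 below 0. The interval lay within 1.5-fold for 74 of 75 and 63 of 66, beside 97.6% of all genes. The other 22 and 1 genes passed the filter through the higher concentrations and are not counted here.

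**Figure D4:**
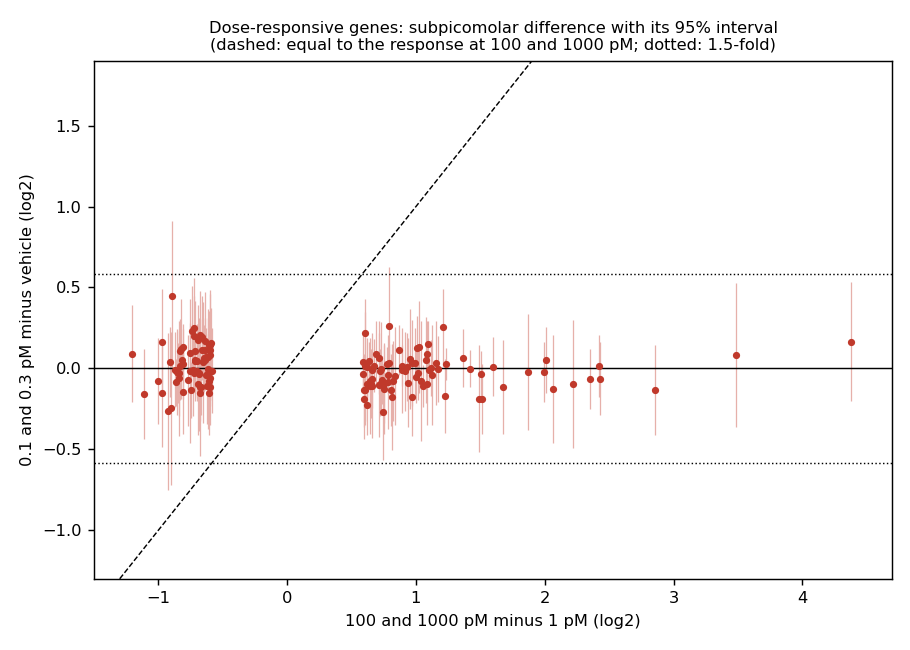
Each point is a gene that responded by at least 1.5-fold, with its log2 difference between the mean of 100 and 1000 pM and 1 pM on the x axis and its log2 difference between 0.1 and 0.3 pM and vehicle, with the 95% interval, on the y axis. Genes with all 19 arrays under the floor are left out. The points form flat bands about 0 (medians −0.02 and 0.01 over all 97 and 67 genes) and do not follow the dashed line of equal response.

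The genes of largest response gave these limits. DHRS3, a retinal reductase, and NPPC, the precursor of C-type natriuretic peptide, had all 19 arrays under the floor. ANPEP, aminopeptidase N, had levels of 3.55, 3.91 and 4.27 on the treated arrays and 3.65, 3.93 and 4.80 on the vehicle arrays, and only 5 of 19 exceeded the floor. ANO1, a calcium-activated chloride channel, had levels of 4.15, 4.91 and 5.28 on the treated arrays and 4.38, 4.83 and 5.29 on the vehicle arrays. Its difference was −0.06 ± 0.11 (SE), with an upper limit of 0.16, or 6.63% of its response of 2.43. Without the 2 arrays with 3′ bias the difference was −0.17 and the upper limit 0.06, 2.32% of the response.

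Among the 10 genes of largest fall, CCN2, a secreted matricellular protein, had levels of 7.05, 8.14 and 8.43 on the treated arrays and 7.15, 8.03 and 8.37 on the vehicle arrays. Its difference was 0.09 ± 0.15 (SE), and its lower limit of −0.21 is 17.4% of its response of −1.20, and the difference was 0.01 without the 2 arrays with 3′ bias. KRT80, an epithelial keratin, gave −0.16 ± 0.14 (SE), with a lower limit at 39.2% of its response of −1.11, and −0.08 and 31.0% without those arrays. CLDN16, a claudin of tight junctions, gave 0.45 ± 0.23 (SE), opposite to its fall of −0.89 at the high concentrations, and the difference was 0.26 without the 2 arrays with 3′ bias (limma p 0.057 and 0.175, neither adjusted). The upper limit of CLDN16 was 0.91 (1.88-fold) over all arrays and 0.64 (1.56-fold) without those 2. On CLDN16 both lowest values, 3.38 in the treated and 2.73 in the vehicle arrays, were on the arrays with 3′ bias. CGNL1, L1CAM, COL26A1, MFGE8, NTNG1, SMIM5 and SMR3B had differences between −0.26 and 0.16. For COL26A1 and MFGE8 the lower limits, −0.75 and −0.72, were 80.9% and 79.7% of the fall at the high concentrations, and 56.3% and 52.4% without the 2 arrays. For these surface and matrix genes the limits are therefore loose.

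Of the 97 genes that rose with dose, 4 were higher and 1 lower at an unadjusted p under 0.05, beside 1.99% and 1.70% of all genes. Of the 75 above the floor on at least 6 of the 19 arrays, 2 were higher and 1 lower. Those among the 97 were ATXN7L1, CILP, CTNND2 and GSAP above and PRDM11 below vehicle, named here after their values were seen except for ATXN7L1. CILP, a cartilage matrix protein, gave 0.15, and GSAP 0.22. They gave 0.04 and 0.03 without the 2 arrays with 3′ bias. ATXN7L1 had all 19 arrays under the floor, and CTNND2, delta-catenin, had 14 of 19 there. Of the 67 genes that fell with dose, 0 were at that threshold in either direction.

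The dose series places the pool. The mean of the 97 rising genes on each array, as a log2 difference from the vehicle mean, was −0.02 ± 0.08 (SD, n = 13) at 0.1 and 0.3 pM, from −0.10 to 0.16, and the vehicle arrays ran from −0.14 to 0.11 (SD 0.10, n = 6). The ranges overlap, and the treated arrays' highest value was the array with 3′ bias at 0.3 pM. The group mean was 0.04 at 1 pM, 0.24 at 3 pM, 0.52 at 10 pM, 1.17 at 100 pM and 1.35 at 1000 pM. The mean of the 67 falling genes was 0.02 ± 0.06 (SD, n = 13) at 0.1 and 0.3 pM, from −0.06 to 0.11, and ran from −0.16 to 0.14 in vehicle. It was −0.02 at 1 pM, −0.14 at 3 pM, −0.34 at 10 pM, −0.71 at 100 pM and −0.81 at 1000 pM. Over the 75 and 66 genes above the floor on at least 6 of the 19 arrays, the means at 0.1 and 0.3 pM were −0.02 ± 0.07 and 0.02 ± 0.06 (SD, n = 13), and those at 3 pM 0.23 and −0.14. The genes were chosen on the 1, 3, 10, 100 and 1000 pM arrays, so those means are a description.

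**Figure D5:**
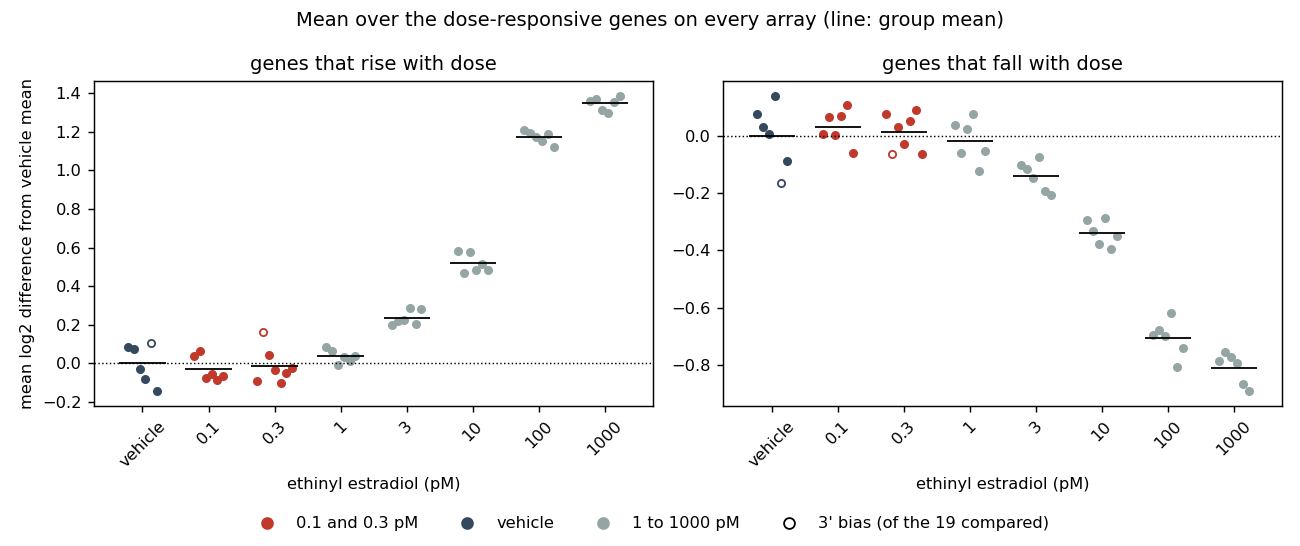
Each point is 1 array, and the y axis is its mean log2 difference from the vehicle mean over the 97 genes that rise (left) or the 67 that fall (right), by concentration on the x axis in pM, with a line at each group mean. The arrays of 0.1 and 0.3 pM (red) lie among the vehicle arrays (dark blue), at −0.02 and 0.02 on average, and the 1 to 1000 pM arrays (grey) move away from 3 pM on.

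The genes of smallest p in the pooled comparison are given as values, since none was called. The 5 highest were OSBPL6, an oxysterol-binding protein (0.15), VPS35, a subunit of the retromer (0.11), FAF2, a factor of protein degradation at the endoplasmic reticulum (0.11), ATXN7L1, and MICB, a ligand of the NKG2D receptor (0.21). VPS35 levels were 10.4 to 10.6 on the treated arrays and 10.2 to 10.5 on the vehicle arrays, and all 13 treated arrays lay above the vehicle mean. The 5 lowest were SFXN5, a mitochondrial carrier (−0.39), SLC25A25-AS1 (−0.39), ZNF280B (−0.16), FANCE, a member of the Fanconi anemia core complex (−0.23), and GGCX, the carboxylase of vitamin K-dependent proteins (−0.20). SFXN5 levels were 4.38, 4.67 and 5.05 on the treated arrays and 4.66, 4.92 and 5.92 on the vehicle arrays, and the groups overlap. SLC25A25-AS1 is an antisense gene, and its levels were 3.78, 4.38 and 5.11 on the treated arrays and 4.36, 4.75 and 5.27 on the vehicle arrays. The repeat without the 2 arrays with 3′ bias reuses the other arrays by which these 10 were chosen, so it is not independent of that choice. All 10 kept their sign in it and 9 kept an unadjusted p under 0.05, with a lowest limma adjusted p of 1.00 over all genes. Some became smaller by over 1.5 times: SFXN5 to −0.25, FANCE to −0.14, GGCX to −0.13, FAF2 to 0.06 and VPS35 to 0.07.

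Other gene groups of the cells showed 0 calls as well. Of 35 proliferation genes tested, 18 were above and 17 below 0, with a median of 0.00 and all intervals within 1.5-fold. One of them, RRM2, a subunit of ribonucleotide reductase, had an unadjusted p under 0.05 at 0.13, and it was 0.04 without the 2 arrays. Of 19 genes of estrogen metabolism, ABCG2, an efflux transporter, had an unadjusted p under 0.05 at 0.22, with means of 4.11 in treated and 3.89 in vehicle cells. Without the 2 arrays 1 gene of this list was again higher at that threshold. In that list 18 of 19 intervals lay within 1.5-fold, and the exception, the cytochrome CYP1A1, had a lower limit of −0.61. Of 19 genes of the unfolded protein response, the chaperone CALR did at −0.30, and it was −0.14 without them. These 4 were named after their values were seen. The 18 immediate early genes tested had a median of −0.07 with 6 above 0, and the 12 oxidative stress genes a median of 0.07 with 9 above 0, which was 0.01 without the 2 arrays. All 9 interferon genes tested were below 0, between −0.13 and −0.02. In the immediate early, oxidative stress, interferon, heat shock (14), cholesterol synthesis (14), hypoxia (19) and reference (12) lists 0 genes had an unadjusted p under 0.05, beside 3.68% of all genes, and every interval lay within 1.5-fold, beside 97.6%. Lists of this size say little apart from those shares.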

How the data were processed

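Total RNA was amplified and labelled from the 3′ end, and each sample was read on an Affymetrix HT HG-U133 Plus PM array, per the labels' protocols. The deposited values are log2 levels that the authors made with GCRMA and Partek, per the submitters' processing notes, with no version given, so background correction, normalization and summarization were theirs. The number of arrays limits the precision. The members, gene lists and tests were chosen with earlier results of these data known.

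The platform annotation gave 1 symbol to 40920 of 54715 probe sets, several to 864 and none to 12931, and 40864 of the first were matched by Entrez identifier to RefSeq (GRCh38.p14). Of the 22721 probe sets over 4 on at least 6 arrays, 2925 without a single symbol were left out, and the probe set of highest mean stood for each of 11075 genes. A total of 0 columns went unused, and 0 pairs of arrays were identical. Group means were estimated in R 4.3.3 by limma 3.58.1 (with statmod 1.5.0 and version 1.17.8 of data.table) with an intensity trend, and the pool weighted arrays equally. The calculations were tested on simulated data. Promoters were read and figures drawn with Python 3.11.15, pandas 2.3.3 and matplotlib 3.10.9.

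Named genes were all tested estrogen targets, the 10 largest rises and falls between 1 pM and the mean of 100 and 1000 pM, the 5 rises and 5 falls of smallest p in the pooled comparison (taken because under 5 genes were called), called genes of the other comparisons and lists (there were none), and ESR1, ESR2, ALPP, ACTB and GAPDH. The alternatives changed the arrays in the fit, the filter, the variance prior, weights, normalization, probe set choice, threshold and replicate block.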

Additional observations from a re-analysis of the deposited data

Results flagged for a closer look

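Dixon's test was run within each group of 6 or 7 arrays, on 67 named genes, the quality measures and the array means of the dose-responsive genes. It sets the highest and lowest values against the nearest other value. Of 216 such groups 40 held a value past the 95% limit, where chance gives about 1 in 20, and 36 of the 40 lay on the 2 arrays with 3′ bias. The values are log2 levels unless named otherwise.

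On 0.3 pM replicate 2 there were 17. The beta-actin 3′ minus 5′ difference was 3.26, that of GAPDH 0.73, and the SD of deviations 0.398. The levels of ACTB (12.76), ADORA1 (7.42), ATXN7L1 (3.96), CELSR2 (7.72), CGNL1 (5.64), COL26A1 (7.81), CTSD (6.60), GGCX (7.97), MFGE8 (7.31) and SCNN1A (9.57) were above those of the other 0.3 pM arrays. The levels of CLDN16 (3.38), NRIP1 (6.99), SGK3 (6.55) and XBP1 (9.92) were below them.

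On vehicle replicate 5 there were 19. The beta-actin difference was 4.62, that of GAPDH 1.79, and the SD of deviations 0.561. The levels of FANCE (5.71), GGCX (8.33), MUC1 (6.34) and SCNN1A (9.88) were above those of the other vehicle arrays. The levels of CILP (5.99), ELOVL2 (5.12), ESR1 (8.09), FHL2 (6.07), GAPDH (12.39), GSAP (6.94), MREG (5.71), MYC (8.04), OSBPL6 (6.42), SGK3 (6.62), TPD52L1 (9.26) and XBP1 (9.08) were below them. GGCX, SCNN1A, SGK3 and XBP1 lay on the same side on both arrays.

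The other 4 were on different arrays. ABHD2 was high on 0.1 pM replicate 1 (8.67), as was its GAPDH 3′ minus 5′ difference (0.0466). AGR2 was high on 0.1 pM replicate 5 (8.28), and ATXN7L1 was high on vehicle replicate 3 (3.52).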

How the results depend on the processing

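Called genes numbered 0 at 0.1 and 0.3 pM against vehicle in all 36 alternatives, and 0 in the 35 run for 0.1 pM, for 0.3 pM and for their difference, including those that left out each array in turn (0 to 0). An adjusted threshold of 0.1, run for the pooled comparison only, also gave 0. The lowest limma adjusted p in the pooled comparison over these was 0.385. The count at an unadjusted p under 0.05 was 408 and depended on single arrays. It was 68 without vehicle replicate 5, 683 to 1109 without vehicle replicate 1, 2, 3, 4 or 6, 1410 without 0.3 pM replicate 2, and 322 to 436 without any other array. It was 94 without the 2 arrays with 3′ bias, 174 without these and the 2 such arrays of higher concentrations, 107 with the 19 arrays alone, 145 with these less the 2, 206 with the actin difference as a covariate, 217 with array weights, 209 with the 19 arrays and weights (chosen after seeing the data), 774 with no filter and 920 over every probe set. The targets within 1.5-fold, 35 of 36 with ALPG and EGR3 counted, were 32 to 36 when arrays were left out in turn. They were 32 with the 19 arrays alone, and 30 where every probe set of a target had to be within 1.5-fold. The dose-responsive genes, 97 rising and 67 falling, were 341 and 440 with no fold minimum and 45 and 3 at 2-fold. Of the 2264 values of 67 named genes in 34 alternatives 0 were called. Of these values 2261 stayed within 1 SD of the main value. Another 3 moved further, VEGFA to 0.08, OSBPL6 to 0.05 and ESR1 to 0.06 with the mean of a gene's probe sets. That SD is the spread of single arrays within the groups, a wide margin. The shift of MYC from 0.19 to 0.03 without the 2 arrays with 3′ bias stays inside it. The sign changed at least once for 39 genes. Whether replicate numbers pair the arrays is not stated in the labels, and the correlations do not settle it. Same-numbered deviations correlated from −0.33 to 0.47 between 0.1 pM and vehicle, with 4 of 6 over 0.1. Between 0.3 pM and vehicle they correlated from −0.43 to 0.42, with 3 of 6 over 0.1. The replicate block gave 0 called genes, 88 at an unadjusted p under 0.05 and 33 targets within 1.5-fold. Signal over background limits ALPG, ATXN7L1, EGR3, DHRS3 and NPPC, which lay under the floor on all 19 arrays.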
